A study of Drosophila melanogaster with 23 samples.

Results

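The comparison asks what adding Sen to OKSM changed in the midgut when both were expressed throughout the fly. It sets the 3 OKSM-Sen libraries against the 3 OKSM libraries of the ubiquitous expression model, which are 6 of the 23 libraries of the series, and it covers the 9637 genes with a mean of 10 reads or more over the 11 libraries of that model. OKSM stands for Oct4, Klf4, Sox2 and c-Myc, the human reprogramming factors, expressed here from one polycistronic UAS transgene. Sen, called senolytic in the labels, is a tagged peptide that is meant to free p53 from FoxO and so to push senescent cells into apoptosis. The study describes it as designed on Drosophila foxo and, elsewhere, as part of the Fork Head protein.

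Flies of all groups carried arm-Gal4, a driver built on the armadillo promoter, with UAS-GFP and a temperature-sensitive tubGal80, and all were kept at 25 °C under a white light lamp, so that expression was constant. The OKSM flies came from a cross to UAS-OKSM and the OKSM-Sen flies from a cross to a stock written as UAS-Sen; UAS-OKSM. The WT flies (3 libraries) carried UAS-TdTomato and the Sen flies (2 libraries, replicates 2 and 3) UAS-Sen. In the ISC-restricted expression model the same UAS transgenes were driven by esg-Gal4, the escargot driver of intestinal stem cells and enteroblasts, with 3 libraries in each of the 4 groups. Both UAS transgenes are described as inserted at the attP2 site of chromosome 3, whereas in fly notation a stock written in this order carries its first transgene on chromosome 2. Which chromosome carried Sen is therefore not settled by the sources used here. The 2 groups thus differ in Sen and in the fly stock that carried it, and these cannot be told apart. Sex, age at dissection and the number of midguts pooled in a library are not given in the sources used here. Nothing says that the replicates were separate cohorts, and every p-value below is therefore set against the spread between libraries, which may be technical.

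The fly midgut is a tube of absorptive enterocytes and hormone-secreting enteroendocrine cells. Its intestinal stem cells (ISCs) carry the Notch ligand Delta, and their daughters, the enteroblasts, become enterocytes when Notch is active. Enterocytes make the secreted digestive enzymes, and a chitin-rich sleeve, the peritrophic matrix, lines the lumen.

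The midgut origin of the libraries showed in the enterocyte genes, whose 11 tested markers summed to 26025 to 63876 CPM (reads of a gene relative to the TMM-scaled total of its library) in the 6 libraries. The 18 visceral muscle markers summed to 1909 to 4065 CPM and the 16 enteroendocrine markers to 634 to 835 CPM. Total counts were 34447109 to 46324866 in OKSM and 34298472 to 40889313 in OKSM-Sen. Across genes, which are not independent replicates, log2 CPM values correlated at 0.965 to 0.981 within the 2 groups and at 0.96 to 0.982 between them. The human cassette was not counted, so the OKSM level itself was not measured. CG33346, a fly gene chosen because earlier results of these data had it high with OKSM, was at 15 to 19.3 CPM in WT and 23.5 and 29.8 in Sen. It stood at 228, 278 and 217 CPM in OKSM and at 201, 162 and 221 in OKSM-Sen, and was not called between these 2 groups (log2 fold change -0.31, SE 0.16). Unc-115b, at 268 to 430 CPM in WT, was at 73.4, 55.6 and 74.8 in OKSM and 80.7, 103 and 78.6 in OKSM-Sen. The latter 2 groups did not overlap, as for 13.6% of all genes tested. CG32302, at 2.07 to 4.61 CPM in WT, was at 63, 69.2 and 122 in OKSM and 40.6, 74.4 and 85.2 in OKSM-Sen. Alp13 was at 0.201 to 1.3 CPM in WT and 7.05 and 4.91 in Sen. In OKSM it was at 5.17, 9.45 and 6.45 CPM and in OKSM-Sen at 11.9, 8.8 and 7.13. None of them was called either.

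Few genes were called between OKSM-Sen and OKSM by edgeR, and more by DESeq2. With edgeR's quasi-likelihood test at an FDR of 10%, 29 of the 9637 genes were called (0.301%), 14 of them higher and 15 lower in OKSM-Sen. Of these genes, 27 code for proteins and 2 are long noncoding RNAs. The median log2 fold change over all genes was 0.01, with an interquartile range from -0.12 to 0.13. At an unadjusted p under 0.05 there were 640 genes, 273 higher (2.83%) and 367 lower (3.81%). DESeq2 called 206 genes, 86 higher (0.892%) and 120 lower (1.25%), which include all 29. The libraries of the 2 groups did not overlap for any of the 29 called genes, and they did not overlap for 13.6% of all genes tested.

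**Figure D1:**
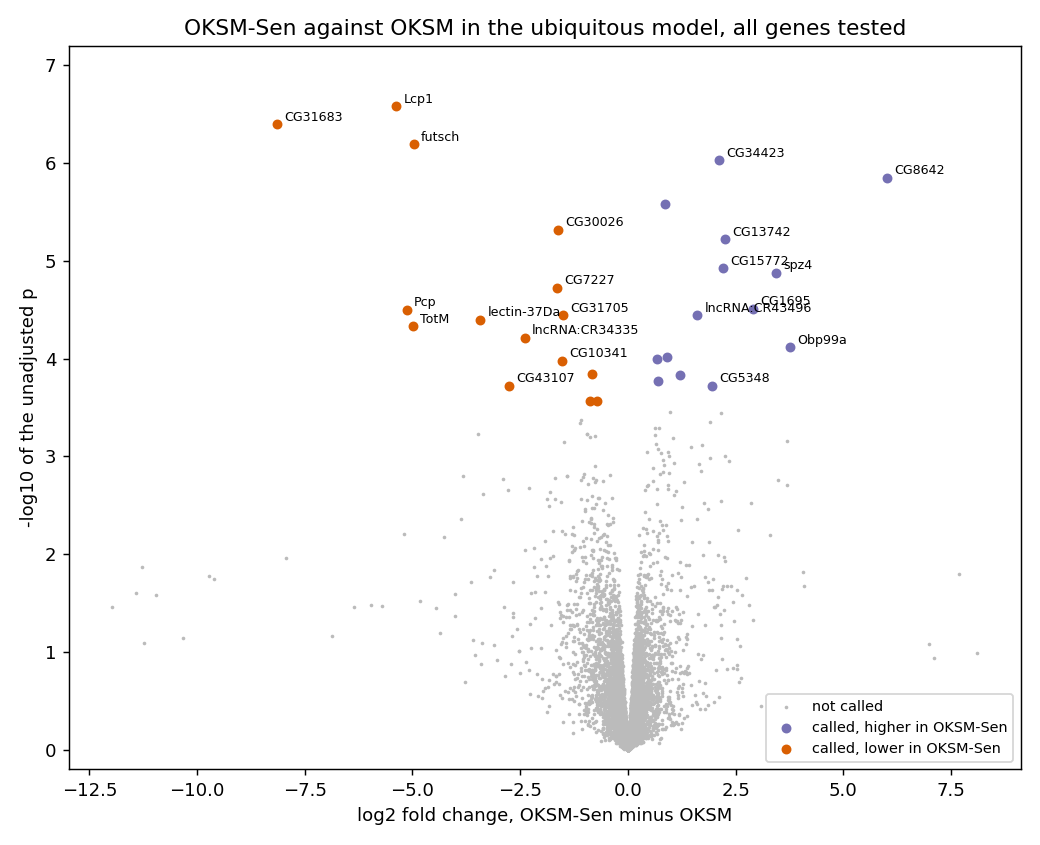
Each point is 1 of the 9637 genes, with its log2 fold change (OKSM-Sen minus OKSM) on the x axis and -log10 of the unadjusted p on the y axis; coloured points are the 14 called higher and 15 called lower genes. The 3 genes with the smallest p values, Lcp1, CG31683 and futsch, lie on the left, lower in OKSM-Sen.

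One set of genes was high in OKSM and near the WT level in OKSM-Sen, and it included the gene with the largest decrease, CG31683. CG31683 (FBgn0051683, chromosome 2L from 20447734 to 20449964) was at 21.2, 49.7 and 53.4 CPM in the OKSM libraries and at 0.174, 0.0843 and 0.166 in the OKSM-Sen libraries. The latter values rest on 6, 3 and 7 reads. WT stood at 0.201 to 0.928 CPM and Sen at 0.282 and 0.194, so that the OKSM libraries alone were high. The fitted level was 284-fold lower in OKSM-Sen than in OKSM (log2 fold change -8.15, SE 0.64, adjusted p = 0.00192). Lcp1, a larval cuticle protein gene (FBgn0002531, chromosome 2R from 8430115 to 8431243), was at 7.5, 10.7 and 5.29 CPM in OKSM and at 0.232, 0.0843 and 0.237 in OKSM-Sen. It was also low in WT (0.106 to 0.172 CPM) and in Sen (0.677 and 0.472 CPM), and its log2 fold change between the combination and OKSM was -5.37 (SE 0.43, adjusted p = 0.00192). futsch, the fly MAP1B relative of neuronal microtubules (X, 1409069 to 1453686), was at 28, 78.3 and 32.4 CPM in OKSM and at 1.27, 1.77 and 1.37 in OKSM-Sen. WT had 1.98 to 2.81 CPM and Sen 0.903 and 1.03, and the difference was -4.97 (SE 0.42, adjusted p = 0.00206). The other 7 tested neuron and glia markers did not pass the test, and 6 of the 8 in all had a log2 fold change above 0.

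2 further genes of this pattern were close to 0 outside OKSM. Pcp, a pupal cuticle protein gene that lies within Gart (2L, 7021682 to 7022470), was at 5.54, 2.49 and 5.41 CPM in OKSM and at 0.116, 0.141 and 0.118 in OKSM-Sen, the latter from 4, 5 and 5 reads. The log2 fold change of Pcp came to -5.13 (SE 0.71, adjusted p = 0.0232). Gart, the purine synthesis gene around it on the other strand, had -0.38 (SE 0.13) and was not called. TotM, a secreted stress protein of the Turandot family (2L, 5329857 to 5330464), was at 4.09, 3.43 and 2.19 CPM in OKSM and at 0.0579, 0.169 and 0.0711 in OKSM-Sen, from 2, 6 and 3 reads. In WT it was at 0.0287 to 0.265 CPM, and its log2 fold change in the comparison was -4.99 (SE 0.72, adjusted p = 0.0265). All 3 Turandot genes tested had negative values, but TotM was the only one called.

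In other genes of this set the difference was smaller. CG31705 (2L) was at 47.1, 41.4 and 48.5 CPM in OKSM against 17.5, 18.1 and 12.5 in OKSM-Sen and 11 to 19.6 in WT. CG7227 (2L), a relative of the CD36 scavenger receptors, was at 11.3, 11.8 and 13.7 CPM in OKSM against 3.82, 4.44 and 3.58 in OKSM-Sen and 3.92 to 5.2 in WT. CG43107 (2R) was at 1.96, 2.65 and 1.12 CPM in OKSM, at 0.348, 0.112 and 0.379 in OKSM-Sen (12, 4 and 16 reads) and at 0.374 to 0.462 in WT. For each of these the OKSM-Sen libraries lay at or near the WT range, and the log2 fold changes were -1.51 (SE 0.21) for CG31705, -1.64 (SE 0.21) for CG7227 and -2.75 (SE 0.47) for CG43107, at adjusted p values of 0.0232, 0.0166 and 0.0675.

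zfh2, which encodes a transcription factor with zinc fingers and homeodomains and lies on chromosome 4, had the same order of levels without passing the test. It was at 59.3, 54.9 and 342 CPM in OKSM, at 20.2, 23.2 and 23.1 in OKSM-Sen and at 14.9 to 17.4 in WT. OKSM replicate 3 alone was far above the others, and the adjusted p was 0.232 (log2 fold change -2.78, SE 0.65).

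A second set of genes was higher with Sen in the ubiquitous model, with or without OKSM. CG34423 (FBgn0085452, 2R from 23358612 to 23359204), a relative of the inhibitory factor of the mitochondrial ATP synthase, was at 2.35, 2.55 and 2.1 CPM in OKSM and at 13.1, 7.9 and 9.2 in OKSM-Sen. WT stood at 2.24 to 2.5 CPM, and the Sen libraries at 10.2 and 11.4. The log2 fold change was 2.11 (SE 0.19, adjusted p = 0.00226) on the OKSM background and 2.18 (SE 0.21, adjusted p = 0.00298) for Sen against WT. CG8642 (FBgn0033312, 2R from 8611379 to 8614155) was nearly silent without Sen, at 0.049, 0 and 0.0912 CPM in OKSM (2, 0 and 3 reads) and 0.0617 to 0.133 in WT. With Sen it was at 2.72, 4.22 and 2.87 CPM in OKSM-Sen and at 2.34 and 2.5 in Sen, and the rise over OKSM was 6.01 on the log2 scale (SE 0.58, adjusted p = 0.00271). spz4, a relative of the Toll ligand spätzle (FBgn0032362, 2L from 11501715 to 11508649), was at 0.417, 0.661 and 0.365 CPM in OKSM and at 3.68, 6.27 and 5.83 in OKSM-Sen. Its Sen libraries were at 1.41 and 2.11 CPM and WT at 0.212 to 0.546. The log2 fold change was 3.45 (SE 0.43, adjusted p = 0.0128) over OKSM and 2.43 (SE 0.46, adjusted p = 0.0428) for Sen over WT.

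CG13742 (2R), CG15772 (X) and CG4839 (2L) were likewise called in both comparisons. CG13742 went from 0.49, 0.661 and 0.821 CPM in OKSM to 3.36, 2.92 and 3.15 in OKSM-Sen (log2 fold change 2.26, SE 0.26). For CG15772 the values were 0.735, 0.724 and 0.882 CPM in OKSM and 3.27, 4.69 and 2.82 in OKSM-Sen (2.2, SE 0.27). CG15772 overlaps lin-52, which was at 0.92 on the log2 scale without a call (SE 0.2, adjusted p = 0.171), and reads of overlapping genes may not be told apart. CG4839, a relative of the cGMP-dependent protein kinases, was abundant and moved less, from 165, 148 and 129 CPM to 228, 270 and 217 (0.69, SE 0.12, adjusted p = 0.0648). In the ISC-restricted model CG4839 had a log2 fold change of -0.014 between OKSM-Sen and OKSM (SE 0.15). phr, the gene of the CPD photolyase that repairs ultraviolet damage in DNA, was at 17.6, 17.9 and 15.6 CPM in OKSM and 32.8, 29.5 and 30.6 in OKSM-Sen (2R; 0.86, SE 0.09, adjusted p = 0.00416). Its WT libraries were at 22.1 to 25 CPM and its Sen libraries at 30.2 and 30.7, a difference of 0.37 that did not pass the test (adjusted p = 0.117). The long noncoding RNA lncRNA:CR43496 (X) was at 1.74, 2.39 and 1.43 CPM in OKSM and at 5.91, 4.81 and 6.28 in OKSM-Sen, and stood between them in WT at 2.79 to 3.98.

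lectin-37Da, a C-type lectin gene (FBgn0053532, 2L from 19418317 to 19419029), was lower with Sen on both backgrounds. It was at 214, 206 and 218 CPM in OKSM and at 25.5, 13 and 21 in OKSM-Sen, where the fitted level was 10.7-fold lower (log2 fold change -3.42, SE 0.46, adjusted p = 0.0241). WT stood at 300.1 to 508 CPM and Sen at 39.9 and 11.4, a difference of -3.86 on the log2 scale (SE 0.56, adjusted p = 0.0211). Smaller differences of this direction over OKSM were found for Gs1, a glutamine synthetase gene (117, 109 and 110 CPM in OKSM, 72.3, 66.2 and 65.5 in OKSM-Sen), and for CG17292 and CG15818, both on 2L. CG17292 was at 61.5, 48.3 and 51.7 CPM in OKSM and 34.3, 27.1 and 28.8 in OKSM-Sen, and CG15818 at 274, 259 and 191 against 128, 133 and 132. For these 3 genes Sen against WT gave values from -0.72 to -0.55 that did not pass the test.

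Over all 9637 genes, Sen against WT, which uses none of the 6 libraries of the main comparison but shares its estimate of the spread, called 239 genes (2.48%), and 71 without Sen replicate 3. Of the 29 genes, 9 were called there as well, which is 31%: CG34423, CG8642, spz4, CG13742, CG15772, CG4839, lectin-37Da, Lcp1 and sordd1. The direction was the same for 7 of the 9, and over all 29 genes it was the same for 22. The share with the same direction among all genes tested is not given here. The exceptions among the 9 were Lcp1, higher in Sen than in WT by 2.07 (SE 0.47), and sordd1, lower by 0.69 (SE 0.12).

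Another pattern was a level in OKSM-Sen that neither OKSM nor Sen reached. Obp99a, an odorant-binding protein gene and the only called gene on chromosome 3 (3R, 29671657 to 29672334), was at 6.29, 7.62 and 5.24 CPM in OKSM-Sen. It was at 0.27, 0.598 and 0.547 CPM in OKSM, 0.517 to 2.34 in WT and 1.47 and 0.721 in Sen (log2 fold change over OKSM 3.76, SE 0.57, adjusted p = 0.0387). CG1695 (X) was at 6.75, 9.05 and 12.8 CPM in OKSM-Sen and at 1, 1.39 and 1.43 in OKSM, with WT at 0.575 to 1.54 and Sen at 0.761 and 1.22 (2.91, SE 0.4, adjusted p = 0.0232). unc-104, the kinesin-3 motor of axonal transport (2R, 16751503 to 16772671), was at 135, 161 and 162 CPM in OKSM-Sen and at 83.9, 81 and 79.5 in OKSM, with WT at 88.6 to 120 and Sen at 69 and 92.4 (0.9, SE 0.14, adjusted p = 0.0457). CG5348 lies inside unc-104 (16766804 to 16769238) and was called as well, at 1.19, 1.29 and 1.75 CPM in OKSM-Sen and 0.466, 0.283 and 0.334 in OKSM (1.95, SE 0.34, adjusted p = 0.0675). The 2 genes lie on opposite strands, and whether the counts used the strand is not given, so their reads may not be told apart. The ISC-restricted libraries did not show this pattern. There unc-104 was at 51.9, 118 and 78.3 CPM in OKSM-Sen and higher in Sen, at 140, 133 and 134. The OKSM-Sen libraries of CG1695 and Obp99a overlapped there with those of both OKSM and Sen, and CG5348 was not tested.

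Other genes were low in OKSM-Sen, in OKSM or in both groups with a single construct. lncRNA:CR34335 (X) was at 2.26, 2.22 and 0.711 CPM in OKSM-Sen and at 9.95, 8.03 and 9.15 in OKSM, close to WT (9.2 to 9.49) and Sen (7.47 and 9.52). For lncRNA:CR34335 the log2 fold change came to -2.39 (SE 0.35, adjusted p = 0.0326). CG30026 (2R) was at 5.1, 4.67 and 5.28 CPM in OKSM-Sen and 17, 16.4 and 12.6 in OKSM, with WT at 9.49 to 12.1 (-1.61, SE 0.18, adjusted p = 0.00664). CG10341 (2L) was at 13.5, 8.8 and 10.9 CPM against 33.2, 32.5 and 30.6 (-1.53, SE 0.24, adjusted p = 0.0463). Its WT libraries were at 16.5 to 28.1 CPM and its Sen libraries at 23.5 and 14, the latter close to OKSM-Sen replicate 1. In the ISC-restricted model CG10341 was instead high in OKSM alone. By contrast obst-E, a chitin-binding protein of the obstructor family (2L), was low in OKSM alone, at 1.79, 1.57 and 1.61 CPM against 4.06, 3.93 and 3.6 in OKSM-Sen and 3.19 to 5.46 in WT (1.22, SE 0.2, adjusted p = 0.0593). sordd1 (X) was at 79.5, 98.3 and 88.7 CPM in OKSM and 84.5 and 101 in Sen, below both OKSM-Sen (148, 136 and 141) and WT (140, 154 and 155). For sordd1 the OKSM-Sen and WT libraries overlapped while those of both single constructs lay below them.

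**Figure D2:**
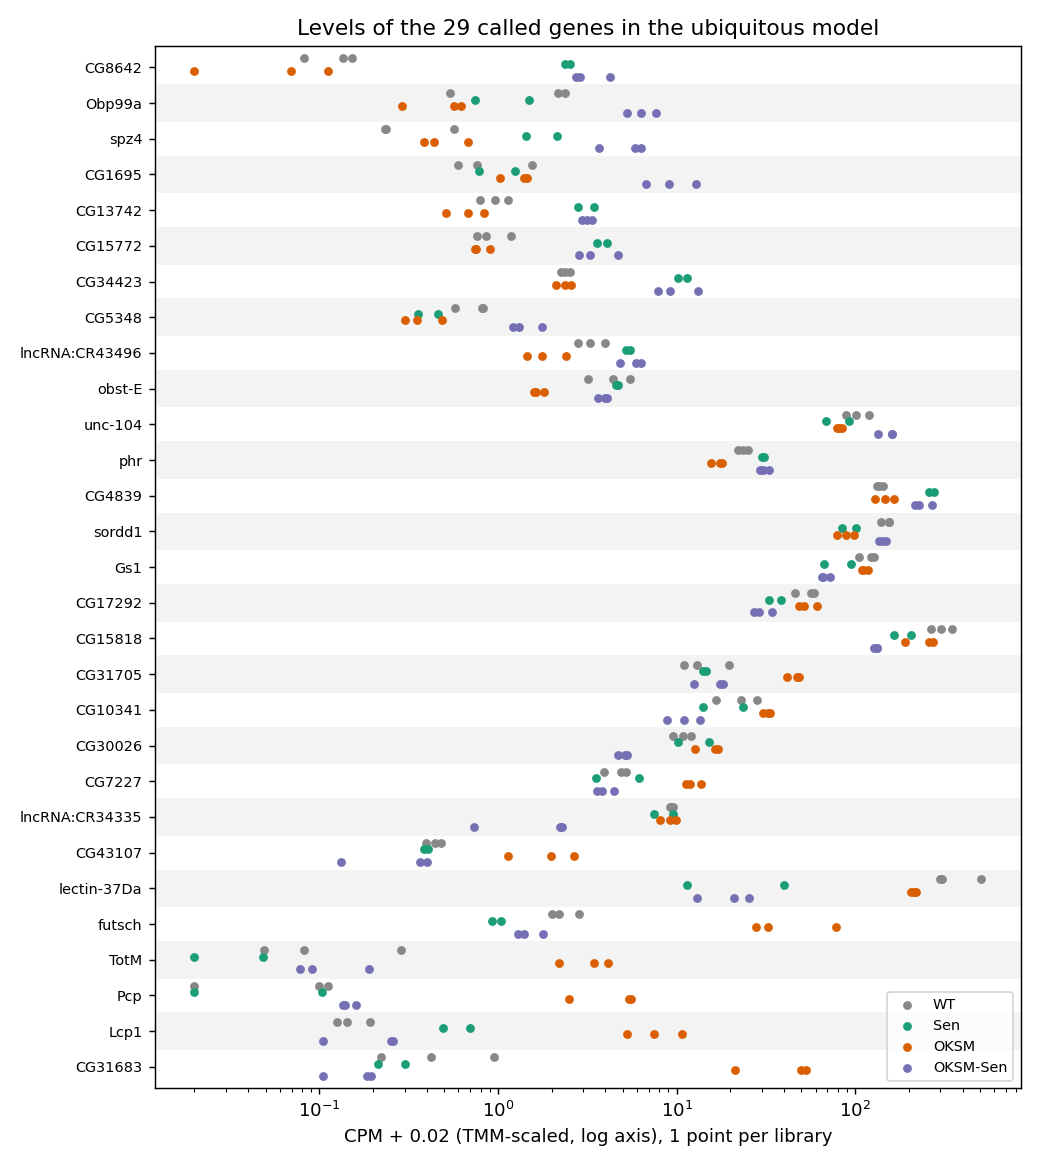
The x axis gives CPM plus 0.02 on a log scale and each row is 1 of the 29 called genes, ordered by log2 fold change, with 1 point for each WT, Sen, OKSM and OKSM-Sen library. In the lowest rows the OKSM points (orange) stand apart from the other groups; in CG8642, spz4 and CG34423 the Sen and OKSM-Sen points stand together, above WT and OKSM.

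Whether the effect of Sen itself differed with OKSM was tested as the interaction, the log2 fold change of Sen on the OKSM background minus that of Sen against WT. It contains the same 6 libraries and is therefore given by its own values. Over all genes 102 were called (1.06%), and 14 without OKSM-Sen replicate 2. sordd1 had an interaction of 1.36 (SE 0.16, adjusted p = 0.0109), Obp99a of 4.37 (SE 0.83, adjusted p = 0.0732) and Lcp1 of -7.45 (SE 0.62, adjusted p = 0.002). For the genes that were higher with Sen on both backgrounds it was -0.08 (SE 0.28) in CG34423, 1.02 (SE 0.62) in spz4 and 1.52 (SE 0.82) in CG8642, none of which passed the test.

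The ISC-restricted model gives the same comparison in separate libraries. There 63 of 9374 genes were called (0.672%), and 17 without OKSM-Sen replicate 3. Of the 29 genes, 27 were tested in it and 7 were called (25.9% of the 27), each in the same direction as in the ubiquitous model. The sign was the same for 24 of the 27, and the share with the same sign among all genes is not given here. spz4 was at 0.712, 0.206 and 0.374 CPM in ISC-restricted OKSM and at 7.45, 6.92 and 8.68 in OKSM-Sen (log2 fold change 4.14, SE 0.39, adjusted p = 0.00194). TotM was at 18.1, 32.4 and 60.2 CPM in OKSM and at 0.24, 0.449 and 0.275 in OKSM-Sen (-6.82, SE 0.88, adjusted p = 0.0161). CG34423 was at 4.27, 6.4 and 2.74 CPM against 15.2, 12.9 and 13.1 (1.62, SE 0.25, adjusted p = 0.0241), and CG8642 at 1.14, 0.206 and 0.249 against 3.49, 6.02 and 5.33 (3.22, SE 0.53, adjusted p = 0.0355). Pcp was at 2.13, 6.67 and 3.05 CPM in OKSM and at 0, 0.0641 and 0.11 in OKSM-Sen (adjusted p = 0.0104), and CG10341 at 41.8, 48 and 45.3 against 27.8, 27.9 and 29.6. In these 6 called genes the ISC-restricted OKSM and OKSM-Sen libraries did not overlap, which was also so for 17.1% of all genes tested in that model.

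The seventh, CG31683, differed between the models in size. In the ISC-restricted model it was at 76.8, 71.5 and 103 CPM in OKSM and at 47.3, 45.8 and 53.8 in OKSM-Sen (-0.78, SE 0.15, adjusted p = 0.0668). There WT was at 35, 39 and 37.8 CPM and Sen at 46.6, 61.7 and 64.2, so that OKSM-Sen lay above WT and OKSM above all other groups. The difference between the models was 7.36 on the log2 scale (SE 0.57, adjusted p = 2.48e-06). futsch, at 1.14, 1.65 and 0.873 CPM in ISC-restricted OKSM and 1.14, 2.11 and 2.31 in OKSM-Sen, lacked the high OKSM level seen in the ubiquitous model, and its model difference was 5.57 (SE 0.54, adjusted p = 3.22e-05). Among 9196 genes tested for a model difference, CG31683 and futsch were the 2 that were called (0.0217%), with DESeq2 calling 37. The other 25 of the 27 genes did not pass this test. lectin-37Da stood at 214, 201 and 125 CPM in ISC-restricted OKSM and 110, 114 and 97.4 in OKSM-Sen, and its model difference of 2.67 (SE 0.63) had an adjusted p of 0.328.

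**Figure D3:**
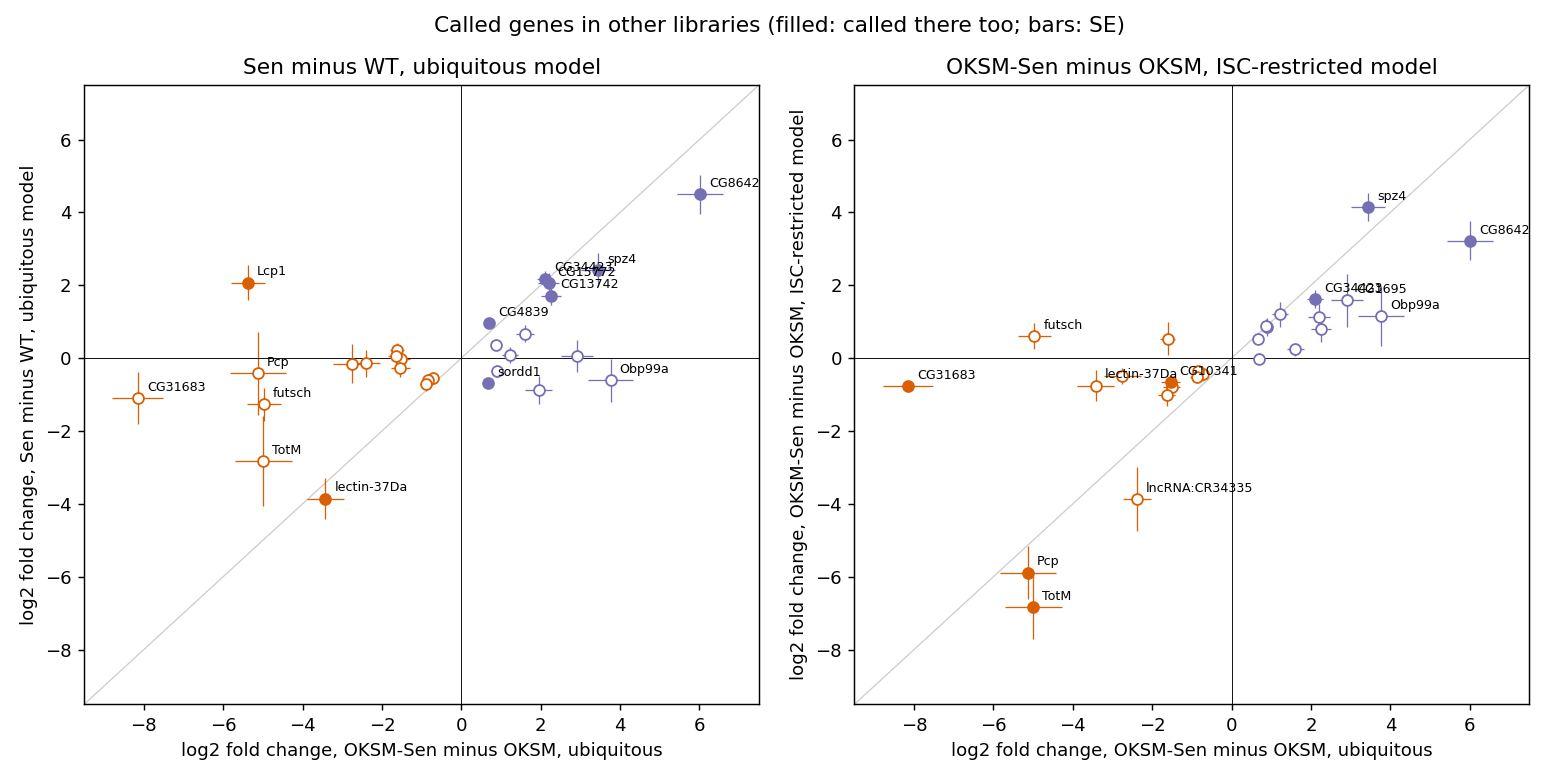
The x axis of both panels is each gene's log2 fold change between OKSM-Sen and OKSM in the ubiquitous model; the y axis is Sen minus WT (left, 29 genes) or the same comparison in the ISC-restricted model (right, 27 genes), with bars for the SE and filled points for genes called in both. Lcp1 is called on the left with the opposite sign, and CG31683 and futsch lie far above the diagonal on the right.

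The called genes were concentrated on one chromosome, in coordinates of the BDGP6.54 annotation, a split that was chosen after seeing the data. Of the 29, 22 lay on chromosome 2 (75.9%), which holds 38.2% of the genes tested. The left arm had 3 higher and 10 lower genes and the right arm 6 higher and 3 lower. Chromosome 3, with 43.7% of the genes tested, held Obp99a alone, and the X held 6 called genes. Among all genes the share with an unadjusted p under 0.05 was 8.61% on chromosome 2, 5.2% on chromosome 3 and 5.9% on the X. Of the 206 genes called by DESeq2, 120 lay on chromosome 2 (58.3%). The share on chromosome 2 stayed between 62.5% and 81.8% when any 1 of the 11 libraries was left out. The ISC-restricted libraries showed the same, with 45 of 63 called genes on chromosome 2 (71.4%) and 9 on chromosome 3. For Sen against WT the share on chromosome 2 was 42.3%, with 36.4% on chromosome 3. The called genes of chromosome 2 were mostly far apart. Over all chromosomes, 19 of the 29 overlap another annotated gene, and reads of such pairs may not be told apart. unc-104 and CG5348 were the only pair in which both genes were called. Besides unc-104 and CG5348, the closest pair was CG31705 and spz4 on 2L, which lie 14372 bp apart and moved in opposite directions. Sen and the stock that carries it came together in the OKSM-Sen flies of both models, so that an effect of Sen and one of the chromosomes of that stock cannot be told apart.

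**Figure D4:**
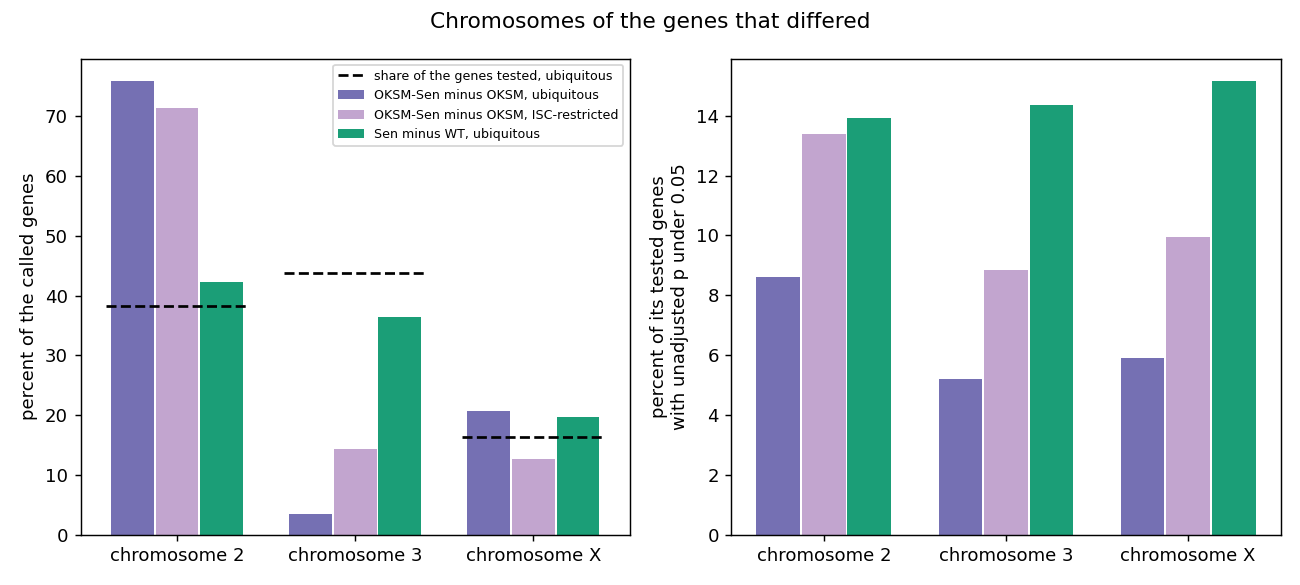
Bars give, for chromosomes 2, 3 and X, the percent of the called genes that lie on it (left, dashed lines for the percent of the genes tested) and the percent of its tested genes with an unadjusted p under 0.05 (right), for OKSM-Sen minus OKSM in both models and for Sen minus WT. Chromosome 2 holds 75.9% and 71.4% of the called genes in the 2 OKSM-Sen comparisons and 42.3% for Sen minus WT.

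Across 61 lists of pathway and marker genes, with 1241 genes tested, edgeR called 6 genes (0.483%, beside 0.301% of all genes): Lcp1, futsch, TotM, Gs1, obst-E and spz4. DESeq2 called 36 of the 1241 list genes, beside 206 of all 9637 genes. Of the 21 p53 and apoptosis genes 0 were called by edgeR or DESeq2, and 0 had an unadjusted p under 0.05. Over all genes 2.83% were higher and 3.81% lower at this p. The median log2 fold change of the p53 and apoptosis genes was -0.04, and it lay between -0.09 and 0.06 with 1 library left out. p53 itself was at 10.9, 13.4 and 11.2 CPM in OKSM and at 12.9, 12.7 and 19.2 in OKSM-Sen, and hid, a pro-apoptotic gene, at 9.85, 17.3 and 16 against 19.9, 16.9 and 20.3. The values of both genes overlapped between the groups, and rpr, another pro-apoptotic gene, was at 1.3 CPM or less in all 6 libraries. Of the 24 insulin, FoxO and TOR genes (median 0.05) 0 were called by either tool. At an unadjusted p under 0.05, 1 was higher and 1 lower, beside 2.83% and 3.81% of all genes. foxo was at 119, 119 and 117 CPM in OKSM and 142, 133 and 107 in OKSM-Sen (log2 fold change 0.1, SE 0.14). Thor, the 4E-BP gene that FoxO activates, had 0.12 (SE 0.22), the insulin receptor InR -0.09 (SE 0.24) and fkh 0.08 (SE 0.21).

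Markers of stem cells and enteroblasts lay mostly above 0 without a call by edgeR. Of the 11 tested, 10 had a log2 fold change above 0, with a median of 0.5, beside 0.01 over all genes. At an unadjusted p under 0.05, 5 of the 11 were higher, beside 2.83% of all genes, and 1, zfh1, was lower. DESeq2 called 2 of the 11 higher, beside 0.892% of all genes. Their summed level was 122, 126 and 147 CPM in OKSM and 177, 190 and 188 in OKSM-Sen, and it was 116 to 167 in WT and 92.6 and 105 in Sen. Sen against WT thus ran the other way, with a median of -0.69 over these markers. E(spl)mbeta-HLH, a Notch target, was at 6.27, 4.57 and 5.87 CPM in OKSM and at 12.9, 13.8 and 8.27 in OKSM-Sen (1.07, SE 0.26, adjusted p = 0.248). mira, which encodes the adaptor Miranda of asymmetric division, was at 14.5, 13.2 and 10.9 CPM against 23.6, 19.6 and 18.2 (0.67, SE 0.16, adjusted p = 0.229). mira and E(spl)mbeta-HLH were the 2 markers that DESeq2 called; mira was picked after its values were seen. Delta had 0.71 (SE 0.31), with 5.44, 4.82 and 5.75 CPM against 7.76, 8.52 and 9.84, esg 0.34 (SE 0.17) and Sox100B 0.42 (SE 0.23). For Delta and esg the groups did not overlap, as was so for 13.6% of all genes tested, whereas for Sox100B they did. In bulk midguts, more cells of a type and more RNA per cell cannot be told apart. In the ISC-restricted model 8 of the 11 markers were above 0, with a median of 0.18.

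Proliferation and growth genes shifted little. Of 39 DNA replication genes 36 had a log2 fold change above 0 (median 0.22, and 0.13 to 0.33 with 1 library left out). All 22 ribosome biogenesis genes were above 0 (median 0.2), with sums of 1083, 953 and 943 CPM in OKSM and 1383, 1040 and 1073 in OKSM-Sen, and without OKSM-Sen replicate 1 the median was 0.09. Neither edgeR nor DESeq2 called a gene of these 2 lists. At an unadjusted p under 0.05, 2 DNA replication genes and 0 ribosome biogenesis genes were higher, beside 2.83% of all genes. None of either list was lower at this p, beside 3.81% of all genes. PCNA was at 5.42, 8.79 and 9.49 CPM in OKSM and at 7.33, 7.03 and 11.2 in OKSM-Sen (0.11, SE 0.32), and the mitotic kinesin gene Klp61F had -0.03 (SE 0.2). Myc, the fly relative of one of the expressed factors, was at 196, 246 and 160 CPM against 287, 227 and 220 (0.28, SE 0.19). JAK/STAT signaling genes had a median of -0.02 over 8 genes, which lay between -0.1 and 0.28 with 1 library left out. upd3, its cytokine ligand, was at 6.13, 6.17 and 19.7 CPM in OKSM and at 10.2, 9.58 and 19 in OKSM-Sen. In upd3 the replicates numbered 3 were the highest of each group.

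Digestive protease genes lay mostly below 0, again without a call by edgeR. The 19 tested amylase, maltase and lysosomal mannosidase genes had a median of -0.05, with 12 below and 7 above 0. In the ISC-restricted model 15 of these 19 were above 0. All 16 Jonah serine proteases, which digest protein in the gut lumen, had a negative log2 fold change (median -0.81), 6 of them with an unadjusted p under 0.05, beside 3.81% of all genes that were lower at this p. DESeq2 called 5 of the 16 lower, beside 1.25% of all genes. Their summed level was 109152, 68648 and 61281 CPM in OKSM and 32892, 52173 and 39499 in OKSM-Sen, beside 38062 to 53690 in WT. Every OKSM library was thus above every OKSM-Sen library, OKSM replicate 1 by the most, and the WT and OKSM-Sen ranges overlapped. The 2 Sen libraries summed to 40085 and 83075 CPM. Sen against WT ran the other way, with a median of 0.33 over the 16 Jonah genes. Jon99Ciii, one of the 2 Jonah genes with the largest decrease in value, was at 15932, 8245 and 6717 CPM against 3421, 4943 and 4248 (-1.29, SE 0.37, adjusted p = 0.384). Of 11 trypsins 8 were below 0 (median -0.31), with a summed level of 43171, 37042 and 35821 CPM in OKSM and 27976, 32088 and 29482 in OKSM-Sen. Near-identical Jonah and trypsin copies may exchange reads, so that their single values are uncertain. Peritrophic matrix, mucin and chitinase genes had a median of -0.55, with 23 of 27 below 0 and 8 lower at an unadjusted p under 0.05 (3.81% over all genes), although obst-E, the one that was called, was higher. Without OKSM replicate 1 the median was -0.6 for the Jonah genes, -0.17 for the trypsins and -0.44 for the peritrophic matrix genes, while that of the 11 enterocyte markers moved from -0.43 to -0.12. In the ISC-restricted model 13 of the 16 Jonah genes were below 0 (median -0.52), with summed levels of 30858, 47126 and 14006 CPM in OKSM and 16031, 26641 and 18560 in OKSM-Sen, which overlapped.

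Metabolic genes moved little as groups, and antimicrobial peptide genes had no common direction. No list was tested as a whole. Of 28 genes of fat synthesis, storage and lipolysis, 25 had a log2 fold change below 0 (median -0.14, and -0.22 to -0.09 with 1 library left out), with 6547, 9799 and 8892 CPM in sum in OKSM and 6438, 6369 and 7060 in OKSM-Sen, which overlapped. Of the 67 nuclear genes of the respiratory chain, 61 were below 0 by little (median -0.07), while 79 of 86 cytosolic ribosomal protein genes were above 0 (median 0.09). Both medians changed sign when 1 library was left out, to 0.0085 for the respiratory chain without OKSM replicate 1 and to -0.014 for the ribosomal proteins without OKSM-Sen replicate 1. The 14 antimicrobial and immune-induced peptide genes summed to 13.9, 36 and 42.7 CPM in OKSM and to 165, 17.7 and 21.9 in OKSM-Sen, where replicate 1 alone was high. Their median was -0.27 and ran from -1.03 to 0.75 with 1 library left out. Single genes of this list ran from -1.54 to 4.09 in log2 fold change. At an unadjusted p under 0.05, 3 were higher and 3 lower, beside 2.83% and 3.81% of all genes. Neither edgeR nor DESeq2 called any of them. In the list of Imd and Toll pathway genes, the immune signaling cascades of the fly, edgeR called spz4 alone of 39. DESeq2 called spz4 and Myd88 higher and the peptidoglycan recognition genes PGRP-SC1a and PGRP-SC1b lower.

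**Figure D5:**
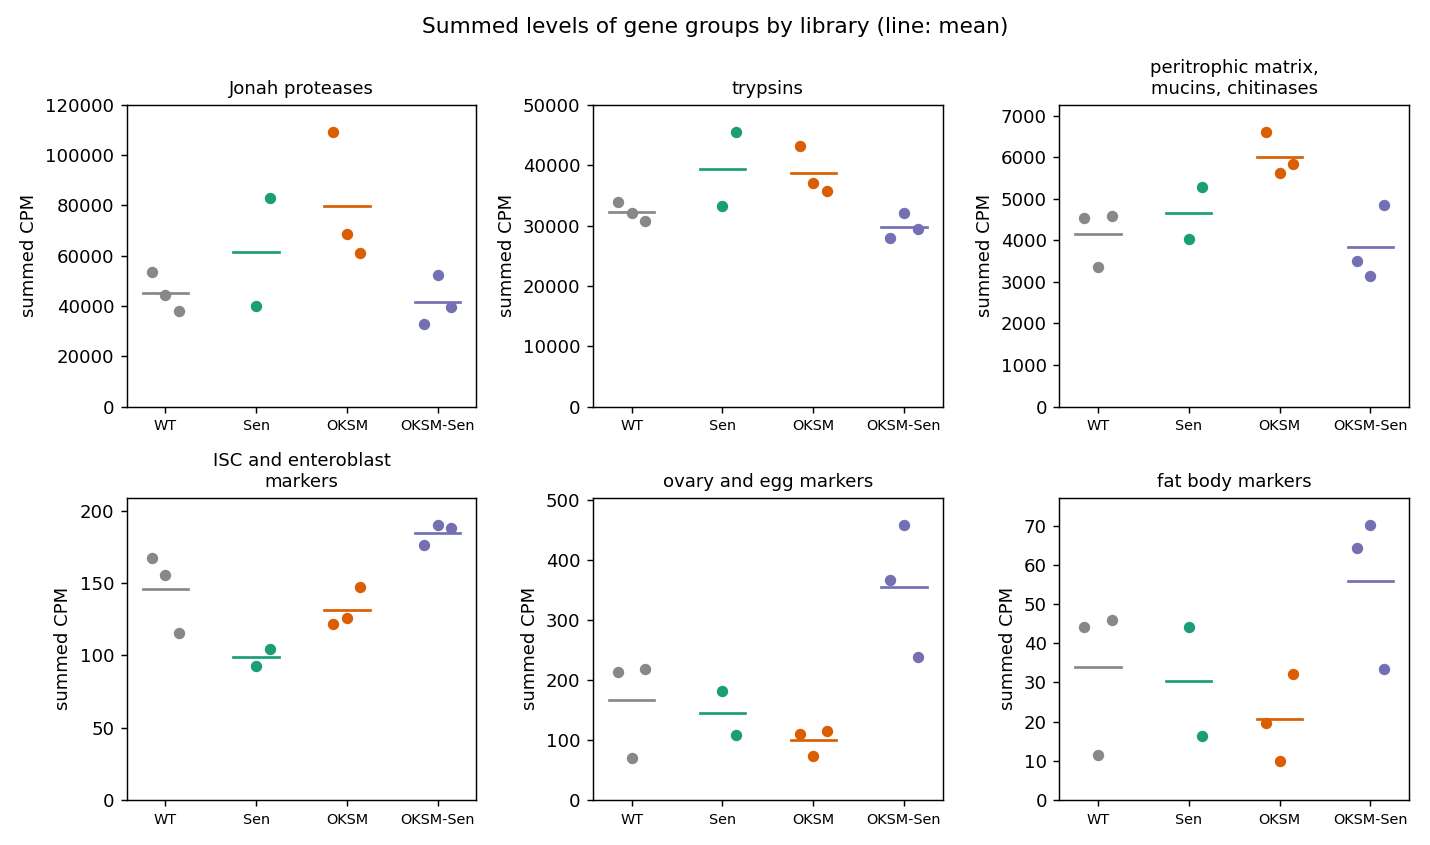
Each panel gives the summed CPM of the tested genes of a list in every library of the ubiquitous model, with a line at the mean of the group. Jonah proteases, trypsins and peritrophic matrix genes are lower and ISC and enteroblast markers, ovary and egg markers and fat body markers higher in all OKSM-Sen than in all OKSM libraries. The median log2 fold changes of the ovary and fat body lists were nevertheless below 0.

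Genes of other tissues also differed in level between the groups. The 10 tested ovary and egg markers summed to 110, 73.1 and 114 CPM in OKSM and to 366, 457 and 239 in OKSM-Sen, with WT at 69.2 to 218. Nearly all of this came from the yolk protein genes Yp1, Yp2 and Yp3, which fat body and ovary both make. Yp1 was at 37, 22.4 and 33.7 CPM in OKSM and at 183, 185 and 109 in OKSM-Sen (2.36, SE 0.5, adjusted p = 0.189). The other 7 markers, such as the chorion gene Cp18 (0.343, 1.51 and 1.25 against 0.203, 0.0843 and 0.118 CPM), were below 0 in log2 fold change, which put the median of the list at -1.94. The 6 fat body markers summed to 19.6, 9.98 and 32.1 CPM in OKSM and 64.4, 70.1 and 33.6 in OKSM-Sen. Of this sum apolpp, the lipophorin gene, made up 29.7 CPM or more in each OKSM-Sen library. Of the 6 genes, 3 were above and 3 below 0 in log2 fold change. The median of the fat body list was -0.2, and -0.46 to 0.038 with 1 library left out. With 1 library left out, the median of the ovary list lay between -2.55 and -1.29. edgeR called none of these ovary and fat body markers. At an unadjusted p under 0.05, 3 ovary markers were higher and 2 lower, and 2 fat body markers were higher and 2 lower. Over all genes 2.83% were higher and 3.81% lower at this p. DESeq2 called Yp1, Yp2 and Yp3 higher and Cp18 and the fat body gene Lsp1gamma lower, beside 0.892% and 1.25% of all genes. The part of these markers in the called differences was not tested. Of 21 male accessory gland markers 1 was tested, at 37.6, 13.4 and 0.699 CPM in OKSM and 1.42, 1.01 and 0.782 in OKSM-Sen, and 3 of 30 testis markers summed to 5.9 to 8.66 CPM over the 6 libraries. The 9 tested hemocyte markers were all below 0 (median -0.62, and -1.05 to -0.04 with 1 library left out), with overlapping sums of 134 to 188 CPM in OKSM and 122 to 151 in OKSM-Sen. Heat-inducible chaperones had a median of 1 over 17 genes, which turned to -0.65 without OKSM-Sen replicate 1 and stood at 2.73 without OKSM replicate 1.

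Leaving out 1 library at a time showed which calls rest on single libraries. Without OKSM replicate 1 or OKSM-Sen replicate 3 there were 11 called genes each, and without OKSM-Sen replicate 2 there were 14. Called in every one of the 11 fits were 9 genes, namely Lcp1, CG31683, futsch, CG34423, CG8642, phr, CG30026, CG13742 and CG15772. These 9 were also called under the other alternatives tried. CG4839 was lost whichever library was left out. CG5348 and CG43107 were each lost in 10 of the 11 fits, and obst-E, CG15818 and Gs1 each in 9. Obp99a was lost with any of the 6 OKSM and OKSM-Sen libraries, and TotM and Pcp with any OKSM-Sen library or OKSM replicate 1. No called gene changed direction in any of the fits, and no log2 fold change moved by more than 1.19-fold.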

How the data were processed

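Midgut RNA was sequenced in 23 libraries (11 ubiquitous, 12 ISC-restricted). The authors deposited 1 table of expected counts by gene for every library, made with STAR (version 2.7.1a) and RSEM (version 1.3.1). Expected counts split reads between similar genes and whether strand was used is not given in the sources. The paper names BDGP6.22 as its build and the submitters' processing notes name dm6. Coordinates here are those of the BDGP6.54 annotation, matched by gene ID (17587 of 17714 IDs), and were not combined with positions of the authors' build.

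Expected counts were rounded. The 390 genes of rRNA, snoRNA and snRNA were removed, as was any gene averaging under 10 reads in a model's libraries. The fit of a model took its 4 groups with 1 shared estimate of the spread, in edgeR (version 4.0.16, R version 4.3.3; TMM, robust glmQLFit, glmQLFTest), Benjamini-Hochberg adjustment and an FDR of 10%. For the model difference, all 23 libraries were fitted together. The test was checked on simulated data. The paper used DESeq2, which is an alternative here (version 1.42.0). Other alternatives were RLE normalization, other filters, the 2 groups alone, no robust fit, an FDR of 5%, a replicate block and each library left out. Folds are the fitted log2 fold changes on a linear scale. No pair of OKSM or of OKSM-Sen replicates of the ubiquitous model was a duplicate: their lowest chi-square for a gene on average was 48.8.

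The named genes are the 12 with the largest and the 12 with the smallest log2 fold change among called genes that did not overlap and reached a mean of 1 CPM, up to 3 called genes of each list, and a set of chosen genes. sordd1, CG17292, CG4839 and CG15818 fell outside this rule and were named after their values were seen, as were lin-52, Gart and the single genes of lists other than the chosen set. The comparison, the lists and the chosen genes were fixed with earlier results of these data known.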

Additional observations from a re-analysis of the deposited data

Results flagged for a closer look

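In the ubiquitous model the effect of Sen differed with and without OKSM, by the interaction test of edgeR, in 14 of the genes named. This number is a description only, since 11 of the 14 were named because they were called between OKSM-Sen and OKSM, a difference that is part of the interaction. Over all genes 1.06% were called, and 14 genes in all without OKSM-Sen replicate 2. It was lower with OKSM in Lcp1 (difference in log2 fold change -7.45, adjusted p = 0.002), CG31683 (-7.05, adjusted p = 0.0418), futsch (-3.7, adjusted p = 0.057), CG30026 (-1.84, adjusted p = 0.027), CG7227 (-1.7, adjusted p = 0.0621) and CG31705 (-1.48, adjusted p = 0.0894). It was higher with OKSM in Obp99a (4.37, adjusted p = 0.0732), CG1695 (2.85, adjusted p = 0.0896), CG5348 (2.82, adjusted p = 0.0621), sordd1 (1.36, adjusted p = 0.0109) and unc-104 (1.26, adjusted p = 0.0609). Delta (2.21, adjusted p = 0.0997), scra, the anillin gene of cytokinesis (1.86, adjusted p = 0.0621), and Klp61F (1.64, adjusted p = 0.0727) also differed, although none of these 3 was called between OKSM-Sen and OKSM. In scra and Klp61F the 2 Sen libraries stood apart from the rest, at 2.23 and 2.5 CPM for scra, where WT, OKSM and OKSM-Sen lay between 5.48 and 9.08.

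Between the models, the difference of OKSM-Sen and OKSM was 7.36 higher (log2) in the ISC-restricted than in the ubiquitous model for CG31683 (adjusted p = 2.48e-06) and 5.57 higher for futsch (adjusted p = 3.22e-05).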

How the results depend on the processing

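The 29 genes called between OKSM-Sen and OKSM in the ubiquitous model became 206 with DESeq2 and 46 when only these 2 groups were fitted, and the cause was not tested. Under RLE normalization, no filter, filterByExpr, no robust fit and an FDR of 5% there were 22 to 30. Leaving out 1 library gave 11 (without OKSM replicate 1) to 36 genes. The deviations of same-numbered OKSM and OKSM-Sen libraries correlated at 0.05, -0.18 and 0.17 across genes. Pairs with unlike numbers ran from -0.24 to 0.23, so the same-numbered pairs did not stand out. With 3 libraries in each group, this cannot decide whether libraries of the same number shared a cohort or batch. With the replicate block there were 18 calls, of which 17 were among the 29. Of the 29 genes, 9 were called under each of the 18 alternatives and none changed direction.

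The interaction called 102 genes, 20 at an FDR of 5%, 519 with DESeq2, 54 with the replicate block and 14 (without OKSM-Sen replicate 2) to 144 with 1 library left out. Sen against WT called 239 genes, 112 at an FDR of 5%, 633 with DESeq2, 143 with the block, 46 with its 2 groups alone and 71 (without Sen replicate 3) to 328 with 1 library left out. In the ISC-restricted model the 63 genes became 37 at an FDR of 5%, 274 with DESeq2, 40 with the 2 groups alone and 17 (without OKSM-Sen replicate 3) to 84 with 1 library left out. The 2 genes of the model difference became 5 without a filter, 37 with DESeq2 and 2 to 6 with 1 library left out. With the block the last 2 counts were 61 and 3.

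Direction turned, in log2 fold change between OKSM-Sen and OKSM with 1 library left out, for 10 genes that were not called: CG32302 (-0.56 to 0.017), w (-0.53 to 0.95), upd3 (-0.11 to 1.08), Thor (-0.13 to 0.27), fkh (-0.0031 to 0.22), InR (-0.26 to 0.099), PCNA (-0.14 to 0.27), Stat92E (-0.089 to 0.056), Klp61F (-0.13 to 0.093) and Socs36E (-0.30 to 0.58, and 0.073 with the block). Genes with few reads in a group, such as CG31683, TotM and Pcp in OKSM-Sen, have folds limited by depth.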
